A study of Mus musculus with 4 samples.

Results

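The genes described here encode the subunits, activators, inhibitor and assembly factors of the proteasome, measured as messenger RNA in cultured mouse microglia with and without lysophosphatidylserine (LysoPS). They were chosen by name, as the mouse symbols that start with Psma to Psmg followed by a number, without the immunoproteasome subunits Psmb8, Psmb9 and Psmb10, and with at least 40 counts summed over all libraries. In all, 45 of the 51826 gene models in the deposited table met this rule. They comprised 8 Psma, 7 Psmb, 6 Psmc, 14 Psmd, 5 Psme, 1 Psmf and 4 Psmg genes. The only further match was Psmb11, the thymus beta subunit, with 8 counts in total, and the member nearest to the limit was Psma8 with 147. The rule itself uses names and summed counts and no difference between groups, but it was set with earlier results of these data known.

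The series held 4 libraries of C57BL/6 mouse primary microglia, 2 treated with LysoPS for 4 h and 2 mock libraries that the labels call untreated. LysoPS is a phospholipid with a single fatty acid chain and a known ligand of GPR34, the receptor in the series title. The cells were shaken off mixed cultures of newborn brain. The descriptions of all samples begin with WT, and the labels name no genetic change. One protocol label speaks of a single treated replicate, while 2 samples are labelled with LysoPS, and the sample labels were followed. The labels do not say what separates one replicate from the next, so p-values measure only the spread between these samples, which may be technical.

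The proteasome degrades proteins that carry ubiquitin chains. Its barrel-shaped core particle has outer rings of alpha subunits (Psma), which form the gate, and inner rings of beta subunits (Psmb), some of which cut peptide bonds. A regulatory particle of ATPases (Psmc) and non-ATPase subunits (Psmd) binds ubiquitinated proteins, unfolds them and feeds them into the core, while other caps (Psme) open the gate without ATP. In microglia and other macrophages, inflammatory stimuli are known to add immunoproteasome subunits and the Psme1 and Psme2 cap, which favour peptides for antigen presentation.

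Psme2 had the largest rise among abundant members and Psmd10 the largest among assembly chaperones. Psma6 had the largest alpha ring rise, and Psmf1 was the only member called lower. Stretches of DNA upstream of these 4 members are therefore shown first. They are RefSeq promoter windows of GRCm38.p6 on each gene's own strand, cut to the bases before the RefSeq start that lie in no GENCODE M21 exon. The stretch of Psmf1 lies within the deposited gene model, which starts further upstream. Capitals mark the NF-Y box, CCAAT on either strand, which the text returns to. Psma6 has a second RefSeq start, whose exon-free stretch (chr12:55398575-55398774) holds 0 NF-Y boxes and is not printed.
Psme2, chr14:55591114-55591351, minus strand: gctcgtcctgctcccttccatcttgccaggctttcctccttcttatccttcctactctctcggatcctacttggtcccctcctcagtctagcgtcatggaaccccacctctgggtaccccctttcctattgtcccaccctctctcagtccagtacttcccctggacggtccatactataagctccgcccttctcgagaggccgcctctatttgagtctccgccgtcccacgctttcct
Psmd10, chrX:140956729-140956906, minus strand: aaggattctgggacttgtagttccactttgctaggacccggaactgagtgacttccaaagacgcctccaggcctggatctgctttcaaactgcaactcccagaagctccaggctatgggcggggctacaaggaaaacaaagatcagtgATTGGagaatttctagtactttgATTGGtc
Psma6, chr12:55383972-55384221, plus strand: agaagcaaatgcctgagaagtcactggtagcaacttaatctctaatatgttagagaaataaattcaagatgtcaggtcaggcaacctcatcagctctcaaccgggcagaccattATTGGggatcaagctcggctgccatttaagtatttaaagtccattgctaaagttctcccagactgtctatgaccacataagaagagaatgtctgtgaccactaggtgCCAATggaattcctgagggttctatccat
Psmf1, chr2:151741311-151741560, minus strand: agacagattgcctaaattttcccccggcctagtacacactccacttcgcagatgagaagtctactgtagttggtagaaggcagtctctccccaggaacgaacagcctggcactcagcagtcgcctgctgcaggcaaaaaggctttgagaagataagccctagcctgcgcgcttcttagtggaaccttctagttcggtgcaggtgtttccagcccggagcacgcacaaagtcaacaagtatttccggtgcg

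Proteasome transcripts were modestly and broadly higher after LysoPS. Of the 45 members, 27 were higher at an adjusted p under 0.05, 1 (Psmf1) was lower and 17 did not pass. Over all 19057 tested genes, 12.8% were called higher and 12.6% lower (2447 and 2407 genes), and among the 12829 genes with at least 5 CPM in 2 libraries the share called higher was 16.5%. All 45 members passed the filter on low counts. Their median log2 fold change was 0.35, a difference of 27.4%, beside a median of -0.01 over all tested genes. No member exceeded 1.5-fold by a test against that size, and at an unadjusted p under 0.05 that test took 3. CPM here is the count scaled by library size with TMM factors, fold changes are LysoPS over mock on the log2 scale, and tests are edgeR's quasi-likelihood test with Benjamini-Hochberg adjustment over all tested genes.

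**Figure D1:**
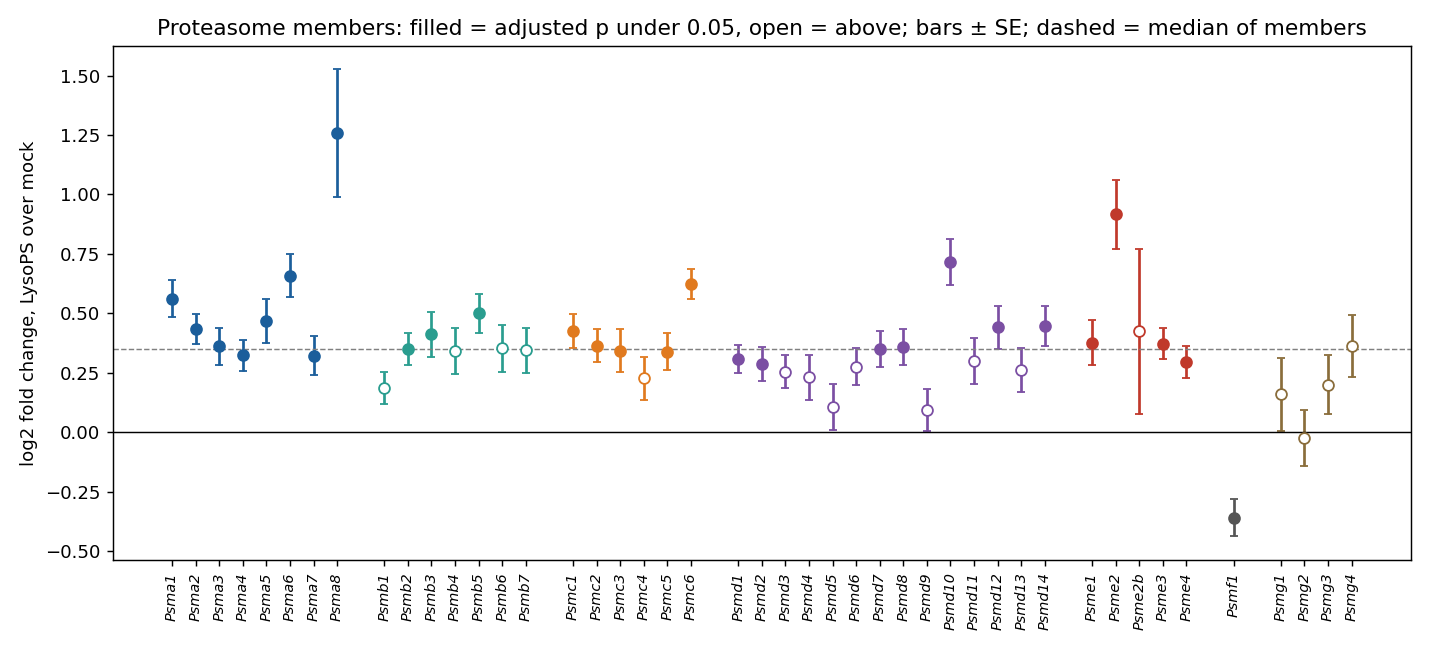
Log2 fold change of CPM, LysoPS over mock, for each of the 45 members by family, with bars of ± 1 SE from edgeR (2 libraries per group). Filled points passed an adjusted p of 0.05, open points did not, and the dashed line is the members' median of 0.35. Psma8 and Psme2 lie highest and Psmf1 is the only filled point below 0.

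The members moved together in the libraries as well as in the fit. The CPM of all members summed to 5582 and 5244 in LysoPS replicates 1 and 2, against 4307 and 4138 in mock replicates 1 and 2. In bulk libraries such as these, fewer cells of a type and less RNA per cell cannot be told apart. In CPM, both LysoPS libraries lay above both mock libraries in 40 of 45 members, and in 1 both lay below. Over all tested genes the shares were 32.5% above and 34.5% below. All 31 subunits of the core and regulatory particles were among the 40. In CPM the 4 members whose groups overlapped were Psmd5, Psme2b, Psmg1 and Psmg2. In deposited TPM, a level per transcript length, the groups of the subunits Psmb1, Psmc4, Psmd4 and Psmd11 overlapped. That scale shifted all genes by -0.16 in log2 at the median.

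**Figure D2:**
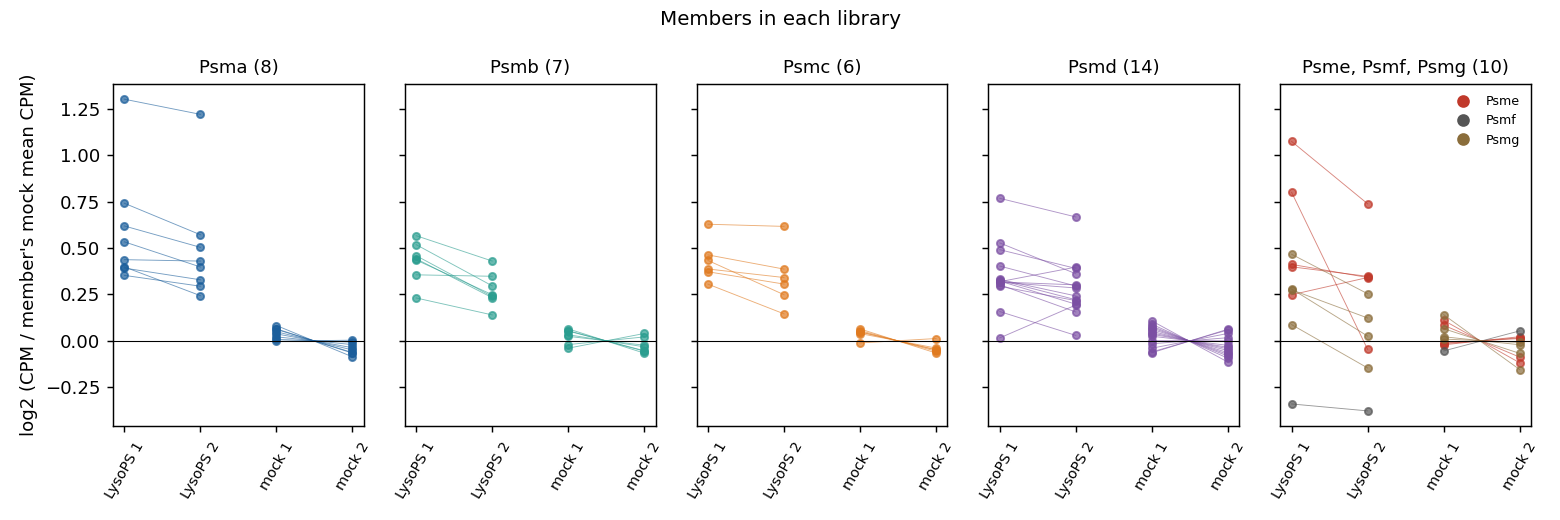
CPM of every member in each of the 4 libraries, as log2 of the ratio to that member's mean over the mock libraries, with lines joining libraries of a group. All 31 core and regulatory particle subunits lie above 0 in both LysoPS libraries, and Psmf1 lies below.

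The number of calls depended on single libraries. Each fit without 1 library leaves 1 library in a group and fewer residual degrees of freedom. A lost call can therefore come with little change in the fold change. Over these fits Psma2 ranged from 0.41 to 0.45 and Psmb3 from 0.29 to 0.52, and both lost calls. Without mock replicate 1 the members still called higher were Psma1, Psma6, Psmc6, Psmd10 and Psme2, and without mock replicate 2 they were Psma6, Psmc6, Psmd10 and Psme2. Without LysoPS replicate 1, 15 members stayed called higher, and the calls of Psma3, Psma4, Psma5, Psma7, Psma8, Psmb3, Psmc3, Psmc5, Psmd2, Psmd7, Psmd12 and Psme1 were lost. Without LysoPS replicate 2, 25 stayed and Psma8 and Psme4 were lost, while 4 others entered. Psmf1 and Psma8 lost their call whichever library was left out. No called member changed sign in these fits. Scaling of the libraries mattered too: with raw library totals 16 members were called higher and 1 lower, with a median of 0.25 against -0.11 over all genes. Over all genes that scaling called 1821 higher and 3226 lower.

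**Figure D3:**
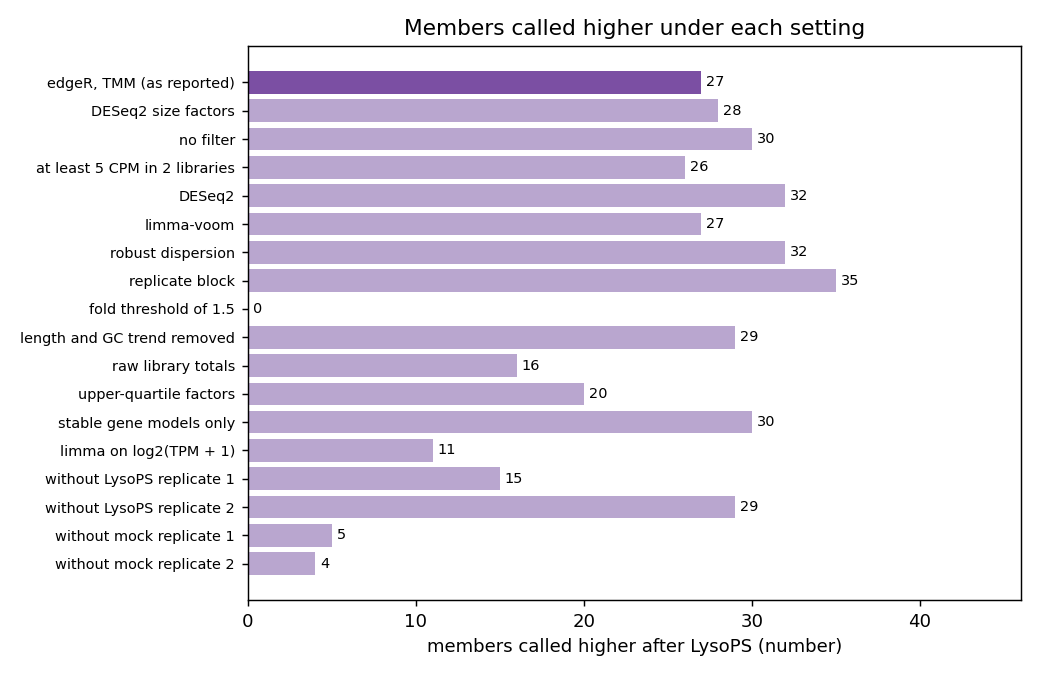
Number of members called higher after LysoPS (horizontal axis) under each setting of the analysis (rows), with the reported fit in dark at 27. The fits without a mock library called 5 and 4, and the test against a 1.5-fold change called 0.

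The counts by family stand beside 12.8% of all tested genes called higher. In CPM, 32.5% of all tested genes had both LysoPS libraries above both mock libraries. All 7 genes of the alpha ring, Psma1 to Psma7, were called higher, with a median log2 fold change of 0.43. Psma6, an alpha ring subunit (ENSMUSG00000021024, chr12:55384222-55418454, plus strand, GRCm38), stood at 188.7 and 167.8 CPM in the LysoPS libraries, against 118.0 and 107.8 CPM in the mock libraries. Both LysoPS values lay above both mock values by more than the gap between replicates, and the log2 fold change was 0.66 ± 0.09 (SE, adjusted p = 0.00803). Psma1, also of the alpha ring, had 167.3 and 154.5 CPM after LysoPS, against 112.7 and 105.3 CPM in mock (0.56 ± 0.08, adjusted p = 0.00812). For Psma2 the libraries gave 148.0 and 147.2 CPM after LysoPS, against 110.9 and 107.7 CPM in mock (0.43 ± 0.06, adjusted p = 0.00950). Psma2 overlaps AW209491 on the same strand, which held 12.4% as many counts. The other ring subunits, Psma3, Psma4, Psma5 and Psma7, lay between 0.32 and 0.47 and were all called.

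Psma8, a paralog of Psma7 that belongs to the testis form of the proteasome, was detected at a trace. It had 47 and 58 counts after LysoPS, against 18 and 24 counts in mock, or 1.40 and 1.33 CPM against 0.584 and 0.555 CPM. The groups did not overlap, and the log2 fold change of 1.26 ± 0.27 (adjusted p = 0.0272) was the highest of any member. In deposited TPM, a level per transcript length, Psma8 stood at 1.54 after LysoPS and 0.716 in mock, while its paralog Psma7 stood at 198 after LysoPS and 178 in mock.

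The beta ring showed the same direction with fewer calls. Of the 7 Psmb members 3 were higher and 4 did not pass, with a median log2 fold change of 0.35. In none of the 7 did the groups overlap in CPM, but those of Psmb1 did in deposited TPM. The subunit Psmb5, which carries the chymotrypsin-like activity (ENSMUSG00000022193, chr14:54614120-54617995, minus strand), had 93.2 and 84.8 CPM after LysoPS, against 64.0 and 61.9 CPM in mock. Its groups were far apart relative to their replicates (0.50 ± 0.08, adjusted p = 0.0127), the largest change of the ring. The caspase-like Psmb6 had 178.1 and 152.9 CPM after LysoPS, against 134.3 and 124.9 CPM in mock (0.35 ± 0.10, adjusted p = 0.0543). The trypsin-like Psmb7 had 142.9 and 125.5 CPM after LysoPS, against 110.5 and 100.9 CPM in mock (0.34 ± 0.09, adjusted p = 0.0537). Both just missed the threshold, and their LysoPS replicates differed more than those of Psmb5. Reads of Psmb7 and of Nek6 on the opposite strand may not have been told apart, since the models overlap and nothing used here says whether counting used strand. Nek6 held 90.7% as many counts as Psmb7.

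Among the structural beta subunits, Psmb2 had 144.7 and 143.9 CPM after LysoPS, against 110.0 and 116.2 CPM in mock (0.35 ± 0.07, adjusted p = 0.0200). Psmb3 had 153.2 and 131.3 CPM after LysoPS, against 109.4 and 104.6 CPM in mock (0.41 ± 0.10, adjusted p = 0.0344). Psmb4 stood at 0.34 (adjusted p = 0.0565), and Psmb1 had the smallest value of the core particle, 0.19 ± 0.07 (adjusted p = 0.109). The immunoproteasome subunits, which replace catalytic beta subunits, were all higher, Psmb8 by 1.61, Psmb10 by 1.11 and Psmb9 by 0.79 (adjusted p = 0.00343, 0.00526 and 0.0451).

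Set against the constitutive subunits they replace, these stayed the minority in deposited TPM. Psmb8 came to 27.6% and 23.2% of Psmb5 in the LysoPS libraries, against 12.5% and 11.2% in the mock libraries. Psmb10 came to 25.02% and 23.6% of Psmb7 after LysoPS, against 15.1% and 14.8% in mock. Psmb9 came to 2.38% and 2.15% of Psmb6 after LysoPS, against 1.77% and 1.57% in mock. In each pair both LysoPS percentages lay above both mock percentages, and no test was made with 2 libraries a group.

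The ATPases of the regulatory particle base, which unfold substrates, were higher in 5 of 6 cases, with a median log2 fold change of 0.35. Psmc6 (ENSMUSG00000021832, chr14:45329824-45349071, plus strand) had 154.1 and 152.9 CPM after LysoPS, against 98.9 and 100.6 CPM in mock. Replicates agreed within 2 CPM in both groups, and its log2 fold change of 0.62 ± 0.06 had the smallest adjusted p of any member (0.00354). Psmc1, whose tail helps open the core gate, had 189.0 and 179.3 CPM after LysoPS, against 141.9 and 132.5 CPM in mock (0.42 ± 0.07, adjusted p = 0.0140). Psmc2 had 125.9 and 121.9 CPM after LysoPS, against 98.9 and 93.7 CPM in mock (0.36 ± 0.07, adjusted p = 0.0204). Psmc3, the ATPase with the highest TPM, had 182.1 and 160.2 CPM after LysoPS, against 139.3 and 130.5 CPM in mock (0.34 ± 0.09, adjusted p = 0.0454). It overlaps Slc39a13 on the opposite strand, which held 29.5% as many counts. Psmc5 also lay at 0.34 and passed, and Psmc4 lay at 0.23 and did not (adjusted p = 0.132).

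Of the 11 Psmd genes that encode subunits of the finished regulatory particle, 6 were higher and 5 did not pass. Their median log2 fold change was 0.30. In none did the groups overlap in CPM, but those of Psmd4 and Psmd11 did in deposited TPM. Psmd14, the deubiquitinase that removes ubiquitin chains before degradation, had 132.0 and 117.7 CPM after LysoPS, against 91.6 and 91.6 CPM in mock (0.45 ± 0.08, adjusted p = 0.0182). Psmd1, a scaffold of the base, had 302.2 and 299.0 CPM after LysoPS, against 246.8 and 238.5 CPM in mock (0.31 ± 0.06, adjusted p = 0.0197). The lid subunit Psmd8 had 220.9 and 233.2 CPM after LysoPS, against 169.3 and 184.9 CPM in mock (0.36 ± 0.07, adjusted p = 0.0256). The lid subunits Psmd12 and Psmd7 were also called, at 0.44 and 0.35, as was the ubiquitin-shuttle docking subunit Psmd2 at 0.29. The ubiquitin receptor Psmd4 lay at 0.23, and the lid subunits Psmd3, Psmd6, Psmd11 and Psmd13 lay between 0.26 and 0.30, without passing. Psmd11 shares 97.9% of 1501 aligned bases with A730017L22Rik, which held 14.6% as many counts. Psmd13 overlaps the pseudogene Gm15542 on the same strand, with 15.7% as many counts, and Sirt3 on the opposite strand, with 13.8%. The counts of Psmd11 and Psmd13 are therefore less certain.

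Chaperones that assemble the proteasome and then leave it were called less evenly, and differences from the subunits were not tested. Of the 4 Psmg genes, which build the core particle, none passed. Their log2 fold changes ran from -0.03 for Psmg2 to 0.36 for Psmg4, with a median of 0.18. Psmg1 had 17.7 and 14.8 CPM after LysoPS, against 16.0 and 13.1 CPM in mock, and its groups overlapped (adjusted p = 0.494). Psmg2, its partner, had 28.1 and 23.9 CPM after LysoPS, against 27.7 and 25.2 CPM in mock, also with overlap (adjusted p = 0.894). Psmg3 had 9.71 and 8.74 CPM after LysoPS, against 8.15 and 7.91 CPM in mock, without overlap (0.20 ± 0.12, adjusted p = 0.289). Psmg4 had 10.6 and 9.15 CPM after LysoPS, against 7.73 and 7.63 CPM in mock, again without overlap (0.36 ± 0.13, adjusted p = 0.106). These genes had lower counts than most subunits, and a p above the threshold does not show that they stayed the same.

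The 3 chaperones of the regulatory base differed from one another. Psmd10, also known as gankyrin (ENSMUSG00000031429, chrX:140948429-140956728, minus strand), had 32.3 and 30.2 CPM after LysoPS, against 18.2 and 19.8 CPM in mock. Both LysoPS libraries stood well above both mock libraries (0.72 ± 0.10, adjusted p = 0.00740), a rise of 64.4%. By contrast Psmd5 had 59.5 and 67.3 CPM after LysoPS, against 61.4 and 56.3 CPM in mock, and its groups overlapped (0.11 ± 0.10, adjusted p = 0.460). Psmd9 had 34.4 and 31.5 CPM after LysoPS, against 30.5 and 31.2 CPM in mock (0.09 ± 0.09, adjusted p = 0.473). In deposited TPM the groups of both genes overlapped. Psmd5 had 27.5 and 32.2 TPM after LysoPS, against 34.3 and 30.1 TPM in mock. Psmd9 had 25.7 and 24.2 TPM after LysoPS, against 25.1 and 26.5 TPM in mock. The TPM means of both lay below mock, on a scale that shifted all genes by -0.16 in log2 at the median. Differences between the chaperones' responses were not tested.

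Of the 5 Psme genes, which encode activator caps, 4 were called higher and Psme2b did not pass. Psme1 and Psme2 encode the alternating subunits of the cytosolic cap and lie close together on chromosome 14. Psme2 (ENSMUSG00000079197, chr14:55587441-55591113, minus strand) had 122.1 and 96.7 CPM after LysoPS, against 62.6 and 53.4 CPM in mock. Its SD was 17.96 CPM after LysoPS and 6.49 CPM in mock, and both LysoPS libraries exceeded both mock libraries (0.92 ± 0.14, adjusted p = 0.0114). Psme1 (ENSMUSG00000022216, chr14:55578123-55581529, plus strand) had 44.7 and 42.5 CPM after LysoPS, against 35.6 and 31.6 CPM in mock (0.38 ± 0.09, adjusted p = 0.0406). It overlaps Emc9 on the opposite strand, which held 10.9% as many counts. In deposited TPM, Psme2 came to 331% and 239% of Psme1 in the LysoPS libraries, against 184% and 183% in the mock libraries, so the partners were less even after LysoPS.

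Of the other caps, the nuclear activator Psme3 had 161.2 and 155.6 CPM after LysoPS, against 121.3 and 123.3 CPM in mock (0.37 ± 0.06, adjusted p = 0.0147). Psme4, a single-chain nuclear activator, had 232.4 and 247.9 CPM after LysoPS, against 193.6 and 197.9 CPM in mock (0.29 ± 0.07, adjusted p = 0.0304). In deposited TPM its groups overlapped, at 70.8 and 81.3 after LysoPS, against 70.6 and 73.0 in mock. With limma on log2(TPM + 1) its log2 fold change was 0.08 (adjusted p = 0.559). Psme2b, a copy that shares 99.4% of 794 aligned bases with Psme2, had 2.18 and 1.21 CPM after LysoPS, against 1.23 and 1.27 CPM in mock. Its groups overlapped (0.42 ± 0.35, adjusted p = 0.416), and the near-identity makes it uncertain whether its reads came from Psme2b or Psme2. The Psme2b model, with 219 counts, also overlaps 9930111J21Rik1 and Gm12185 on the same strand, which held 1128 and 131 counts. This adds to the uncertainty.

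Psmf1 was the only member called lower. It encodes a proline-rich protein that inhibits the core particle in vitro (ENSMUSG00000032869, chr2:151715812-151744186, minus strand). Its libraries held 40.9 and 39.9 CPM after LysoPS, against 49.9 and 53.7 CPM in mock. Both LysoPS values lay below both mock values, and the log2 fold change was -0.36 ± 0.08 (adjusted p = 0.0300), so the level fell by 22.1%. In deposited TPM its levels were 24.2 and 26.4 after LysoPS, against 33.1 and 34.8 in mock. In fits without 1 library its log2 fold change ranged from -0.41 to -0.30.

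Levels per transcript length, from the deposited TPM, ordered the families. The beta ring had the highest median, 324 and 326 TPM in the LysoPS libraries, against 280 and 298 TPM in the mock libraries. The alpha ring followed, at 204 and 192 TPM after LysoPS, against 177 and 179 TPM in mock, then the ATPases, at 184 and 181 TPM after LysoPS, against 162 and 152 TPM in mock. The 11 regulatory non-ATPase subunits had medians of 146 and 143 TPM after LysoPS, against 132 and 134 TPM in mock. The core chaperones had medians of 39.4 and 37.1 TPM after LysoPS, against 33.1 and 33.5 TPM in mock. Among the 31 structural subunits, mean TPM ranged from 81.7 for Psmd11 to 400 for Psmb6 after LysoPS, and from 75.5 to 354 for the same genes in mock, a ratio of 4.89 after LysoPS and 4.69 in mock.

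**Figure D4:**
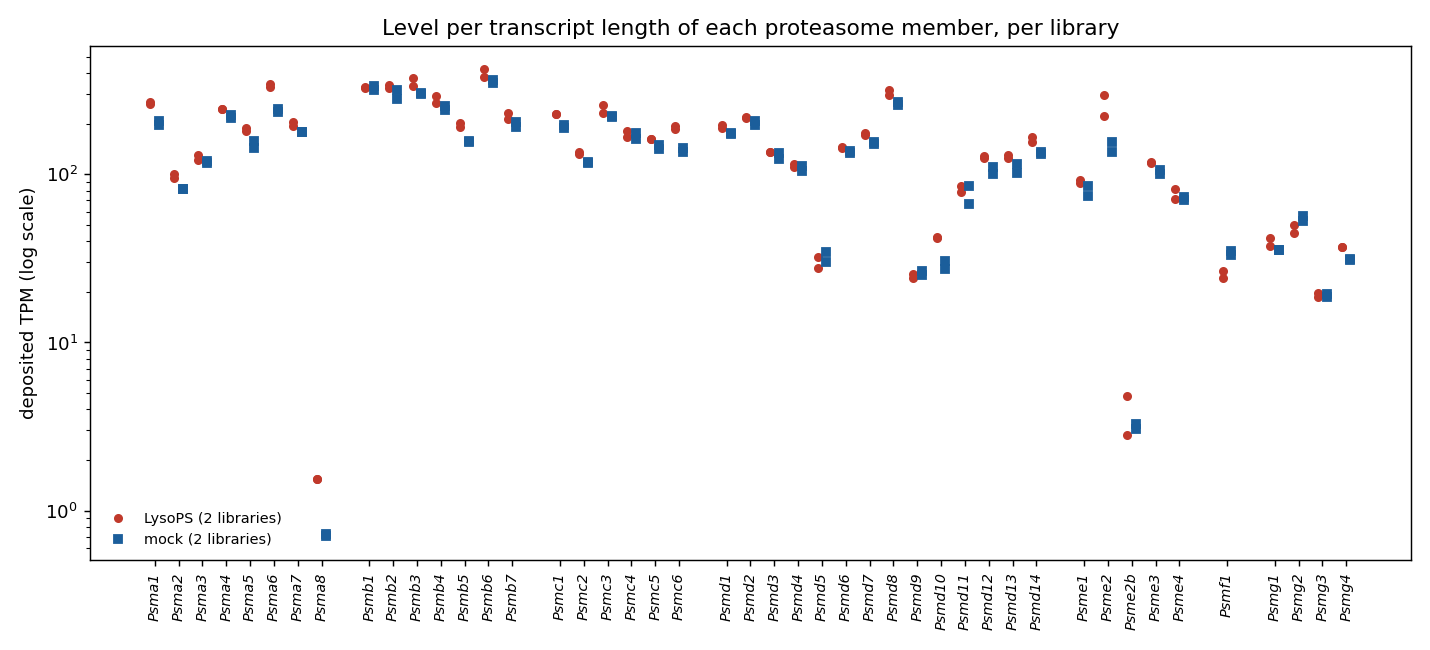
Deposited TPM on a log scale for each member, one point per library, LysoPS left of mock. The 31 core and regulatory particle subunits have group means between 75.5 and 400 TPM, and the chaperones Psmd5, Psmd9, Psmd10 and Psmg1 to Psmg4 and the inhibitor Psmf1 lie below them.

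Genes that work around the proteasome were counted from lists, beside 12.8% called higher over all tested genes and 16.5% among those with at least 5 CPM in 2 libraries. Of 12 listed assembly and associated factors 11 were tested and Paaf1 was not analysed here. Of these 6 were higher and none lower, with a median log2 fold change of 0.36. Usp14, a deubiquitinase that docks on the regulatory particle, had 140.4 and 135.0 CPM after LysoPS, against 91.7 and 93.6 CPM in mock (0.57 ± 0.07, adjusted p = 0.00514). The ubiquitin receptor Adrm1 had 75.2 and 68.6 CPM after LysoPS, against 50.9 and 48.7 CPM in mock (0.53 ± 0.08, adjusted p = 0.0115). Txnl1, a redox protein bound to the regulatory particle, had 139.5 and 136.2 CPM after LysoPS, against 108.0 and 103.7 CPM in mock (0.38 ± 0.07, adjusted p = 0.0153).

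Of 13 tested regulators of proteasome gene transcription, 4 were higher and none lower, with a median of 0.18, beside 12.8% higher over all tested genes. The small Maf proteins, which pair with NRF factors on DNA, rose, with Mafk at 0.66, Mafg at 0.38 and Maff at 1.42 (adjusted p = 0.0104, 0.0153 and 0.0167). Of the 9 regulators that did not pass, Nfe2l2, Ddi2, Ngly1, Foxo4, Nfya and Nfyb lay between -0.10 and 0.03. Nfyc, Nfe2l1 and Bach1 lay between 0.18 and 0.39. The factor best known for raising proteasome genes, Nfe2l1, was chosen here after its values were seen. It had 97.3 and 94.2 CPM after LysoPS, against 88.0 and 75.2 CPM in mock, without overlap (adjusted p = 0.151). In deposited TPM its groups overlapped, at 67.3 and 85.4 after LysoPS, against 85.3 and 74.1 in mock. The TPM scale shifted all genes by -0.16 in log2 at the median. The transcript length that counts and FPKM imply for Nfe2l1 varied by more than 1.2 times across libraries. Of 19 ubiquitin and delivery genes 4 were higher and none lower, with a median of 0.22, a share near the 16.5% of genes with at least 5 CPM in 2 libraries. Rps27a, a ubiquitin fusion gene, had 355.3 and 311.9 CPM after LysoPS, against 240.0 and 236.2 CPM in mock (0.49 ± 0.08, adjusted p = 0.0137). Nploc4, a cofactor of the unfoldase VCP, rose by 0.42, and the shuttle Rad23b rose by 0.32 (adjusted p = 0.0130 and 0.0184). Without either mock library in turn, Txnl1, Adrm1, Mafk, Mafg, Rps27a, Nploc4 and Rad23b lost their calls, with adjusted p for Rad23b at 0.152 without mock replicate 1 and 0.0976 without mock replicate 2. Maff lost its call without mock replicate 2 (adjusted p = 0.0523), and Usp14 kept its call without any 1 library. With limma on log2(TPM + 1), Txnl1, Mafg, Nploc4 and Rad23b lost their calls.

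Short motifs in the RefSeq windows, from 250 bases before to 50 after each start, were counted as a description, on both strands. Windows were matched for 37 of 45 members. The NF-Y box CCAAT stood in 12 of these (32.4%), against 41.1% of all 27025 genes with a window. Of the 12, 11 were called higher, with a median of 0.42. Of the 25 without it 12 were called higher, with a median of 0.32. The 12 include Psma1, Psma2, Psma3, Psma6 and Psma7, from a family in which every member was called. Box and family therefore cannot be told apart here. The share called higher among all genes with the box was not computed, and a link to the box was not tested. The antioxidant response element core TGACNNNGC, a sequence that NRF factors with small Maf partners bind, stood in 6 members (16.2%), against 13.99% of all genes. The 6 are shown with that core in capitals, as it lies on either strand.
Psmc6, chr14:45329587-45329615, plus strand: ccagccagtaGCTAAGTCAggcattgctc
Psmb5, chr14:54618024-54618052, minus strand: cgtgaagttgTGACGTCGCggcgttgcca
Psmd12, chr11:107479278-107479299, plus strand: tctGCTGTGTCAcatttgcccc
Psmb6, chr11:70525338-70525366, plus strand: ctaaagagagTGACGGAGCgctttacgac
Psme4, chr11:30771758-30771786, plus strand: cgctgcggctGCAGCGTCAccagaagagc
Psmd9, chr5:123228149-123228177, plus strand: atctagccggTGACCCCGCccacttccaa
Among them the log2 fold change ran from 0.09 (Psmd9) to 0.62 (Psmc6), with a median of 0.40, beside 0.36 for the 31 members without the core. The interferon-stimulated response element stood in 5 members (13.5%), against 3.99% of all genes. Of these 5, 2 were called higher, with a median of 0.36, and of the 32 without it 21 were, also with a median of 0.36. One was Psme1, chr14:55578493-55578522, plus strand, with the element in capitals: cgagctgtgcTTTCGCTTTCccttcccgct. No match was found in the window of Psme2, whose rise was larger.

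The cultures held RNA of several cell types, and markers of these moved in the same libraries. Of 13 gene models for microglia and macrophage markers 7 were higher and 2 lower, with summed levels of 3125 to 3455 CPM after LysoPS and 2357 to 2627 CPM in mock. Of 8 astrocyte markers 7 were lower and none higher, with sums of 4994 to 5719 CPM after LysoPS and 9543 to 10597 CPM in mock. Of 6 fibroblast markers 3 were lower and none higher, with sums of 11709 to 12041 CPM after LysoPS and 14231 to 14368 CPM in mock. Of 3 tested endothelial markers Cdh5 and Kdr were lower, and the sums, mostly Cdh5, were 158 to 184 CPM after LysoPS and 327 to 335 CPM in mock. The third, Pecam1, had 1.70 and 2.10 CPM after LysoPS, against 0.0974 and 0.74 CPM in mock, without overlap (adjusted p = 0.0875). The listed marker Cldn5 had 0 and 0 counts after LysoPS, against 2 and 0 counts in mock. Of 6 oligodendrocyte lineage markers 3 were higher, and none of 4 neuronal markers passed. Oligodendrocyte sums were 388 to 412 CPM after LysoPS and 360 to 363 CPM in mock, and neuronal sums were 149 to 151 CPM after LysoPS and 134 to 145 CPM in mock. Their part in the values of the proteasome genes was not tested.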

How the data were processed

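Messenger RNA of 4 libraries of primary mouse microglia, 2 LysoPS and 2 mock, was analysed. GRCm38, HISAT2, StringTie, Trimmomatic 0.36 and FastQC 0.11.2 are named in the submitters' processing notes. For parameters, annotation release, counting program and strand setting the sources name nothing. Each gene model has FPKM, TPM and count columns, per the file headers. Library totals of the deposited raw counts were 34689045 and 45193959 in LysoPS and 30001098 and 41572340 in mock libraries. The deposited TPM was used for levels between genes, and the deposited FPKM only for the transcript length that counts and FPKM imply.

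Counts were fitted over the whole table in R 4.3.3 by edgeR 4.0.16 (limma 3.58.1 for alternatives), after filterByExpr (minimum count 10), TMM factors from 0.966 to 1.04, a quasi-likelihood F test with 2 residual degrees of freedom and two-sided p-values adjusted by Benjamini-Hochberg at 0.05. The SE is the log2 fold change divided by the root of its F statistic. The fit was tested on simulated data.

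Members were chosen by the naming rule, and members and lists were chosen with earlier results of these data known. Genes named in full were, per family, the 3 with the smallest p and the 1 with the highest TPM, all Psme genes, Psmf1, Psmb5, Psmb6 and Psmb7, and up to 3 per list by p. Psma8, Psmd5 and Psmd9 were named after their values were seen. Near-identical copies were sought in GENCODE M21 transcripts (at least 95% identity over 200 bases). Of the members, 39 had the same coordinates in GENCODE M21.

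Alternatives were DESeq2 size factors, DESeq2 1.42.0, limma-voom, other filters, each library left out, a replicate block, robust dispersion, a fold threshold of 1.5 and removal of length and GC trends. Raw totals, upper-quartile factors, stable gene models (at least 20 counts per library and an implied length that varied by at most 1.2 times) and limma on log2(TPM + 1) were added after the data were seen.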

Additional observations from a re-analysis of the deposited data

How the results depend on the processing

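The direction of all 28 called members held in every fit that left out 1 library, but their calls did not. Members called higher, 27 as reported, ranged from 4 to 29 without 1 library, and the fall of Psmf1 was called in none of these fits (0 members lower). The members' median ranged from 0.29 to 0.40, and calls over all genes, 4854 as reported, ranged from 2165 to 5356. When tested for exceeding 1.5-fold, 1064 genes passed, with 0 members higher and 0 lower. With raw library totals 16 members were higher with a median of 0.25, and over all genes 1821 were higher and 3226 lower, against 2447 and 2407 as reported. That scaling shifted all genes by -0.10 at the median. With limma on log2(TPM + 1), which shifted all genes by -0.16, the members' median was 0.17 and 11 were called higher, against -0.14 over all genes (1353 higher, 3088 lower). The cause of these differences in scaling was not tested. With upper-quartile factors 20 members were higher, and under the other settings 26 to 35. The replicate block gave 5433 genes and 35 members higher. The labels share replicate numbers only, and deviations of same-numbered libraries from their group means correlated by 0.08 across all genes and 0.15 across members. With 2 pairs the numbers were not taken as pairs. Single genes could still follow them. The microglia marker Cx3cr1, chosen here after its values were seen, had 175.6 CPM in LysoPS and 132.5 CPM in mock replicate 1. In replicate 2 it had 19.5 CPM in LysoPS and 13.4 CPM in mock. The astrocyte marker Gja1 went opposite ways, with 141.0 and 374.9 CPM in LysoPS replicates 1 and 2, against 1450 and 619 CPM in mock. What lies behind these values was not tested. Among the genes named by rule, which leaves out Psmd5 and Psmd9, Psme2b and Psmg2 reversed sign, and neither was called. Without 1 library Psme2b ranged from -0.052 (without LysoPS replicate 1) to 0.80, and Psmg2 from -0.15 to 0.091 (without LysoPS replicate 2, and 0.04 without mock replicate 1).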
